A study of Bos taurus with 8 samples.

Results

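Transcripts of the ubiquitin-conjugating enzymes and of the numbered ubiquitin-specific proteases were measured in bovine embryos with and without an edit of RPL12, which encodes a component of the large subunit of the ribosome. Members were every gene of the deposited table whose symbol starts with UBE2, or with USP and a digit, and whose mean over the 8 libraries was at least 1 CPM (reads per 1000000 assigned reads), with USP18 left out. This gave 78 of the 16606 genes in the table, 32 with a UBE2 symbol and 46 with a USP symbol. The 4 groups were control and edited 4-cell embryos and control and edited 8-cell embryos, with 2 libraries in each group and a pool of 5 embryos in each library. All embryos came from abattoir oocytes matured and fertilised in vitro, and those to be edited received PEmax and a guide RNA by injection into the cytoplasm of the zygote. PEmax is a prime editor, a Cas9 nickase joined to a reverse transcriptase that copies a change written in its guide RNA. The titles call the embryos base edited while the protocol speaks of prime editing, and the labels give neither the share of edited alleles nor whether controls were injected. The source name of the samples titled as 4-cell embryos is oocytes, and the titles were followed.

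Ubiquitin is a small protein that is attached to other proteins in a cascade. An activating enzyme (E1) charges ubiquitin and hands it to a conjugating enzyme (E2), and a ligase (E3) brings the charged E2 to the protein to be marked, either once or as a chain that can send the protein to the proteasome or act as a signal. Nearly all human and bovine E2s carry UBE2 symbols, and a few of them carry ubiquitin-like proteins such as NEDD8 or ISG15 instead. Ubiquitin-specific proteases (USPs) cut ubiquitin off again and form the most numerous family of deubiquitinating enzymes. In oocytes and early embryos this system removes maternal proteins and drives the exit from meiosis and each mitosis.

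The libraries held 33527531 to 35122409 assigned reads, so that 3 reads equalled 0.0858 to 0.0899 CPM, and between 14763 and 15438 genes had a read. RPL12 stood at 159 and 174 CPM in the 4-cell controls and at 27.5 and 33.6 CPM in the 4-cell edited libraries, and at 96.3 and 97.6 CPM in controls against 14.1 and 11.9 CPM in edited libraries at the 8-cell stage. The edited libraries were lower at both stages (limma adjusted p = 2.36e-06 and 2.99e-06). As sums, markers of the cells that surround an oocyte moved with the groups. The summed level of 18 cumulus and granulosa markers was 1253 to 1532 CPM in 4-cell controls, 437 to 465 CPM in 4-cell edited, 552 to 837 CPM in 8-cell controls and 436 to 451 CPM in 8-cell edited libraries. The sum of 10 theca and stroma markers was 4149 to 7258, 1453 to 2089, 3022 to 3522 and 241 to 864 CPM in the same order. For 14 oocyte and embryo markers it was 18432 to 24300, 42178 to 51368, 34554 to 46799 and 48604 to 51946 CPM, so the labelled cell type carried its markers in every library. Most of this last sum was BTG4, at 12016 and 14925 CPM in 4-cell controls and 28841 and 37563 CPM in 4-cell edited libraries. ZP3, ZP4, KPNA7, NLRP5, OOEP, TLE6, PADI6 and FIGLA of the same list overlapped between those groups. Single genes did not all follow the sum of their list. In the cumulus and granulosa list HAS2 stood at 24.3 and 55.4 CPM in 4-cell controls and at 132 and 124 CPM in 4-cell edited libraries. GREM1 was also higher in the 4-cell edited libraries, and CYP19A1 overlapped. No marker in the table of these lists was at 0 in all libraries. In such pooled samples fewer cells of a type and less RNA per cell cannot be told apart.

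Not every symbol stands for a distinct enzyme measurement. USP6NL matches by symbol only and encodes a GTPase-activating protein for Rab proteins, not a protease. USP21 held exactly the same reads as UFC1, the E2 of the ubiquitin-like protein UFM1, in all 8 libraries. UFC1 is the next protein-coding gene in the RefSeq cattle annotation (assembly ARS-UCD2.0). The values listed for USP21 therefore cannot be assigned to USP21 rather than to UFC1, and counts below are also given without it. The remaining 77 members had no other gene with identical reads in all 8 libraries, whereas 227 of the 12129 genes tested had such a match among the tested genes. In the same annotation 20 members overlap another protein-coding gene, among them UBE2D4, UBE2Q1, USP1, USP7, USP34, USP40 and USP53, and the strand setting of the counting is not given in the sources used here. The counting could have mixed reads of such genes, or split those of close relatives such as the UBE2D genes, and their values are uncertain to that extent. USP27X lay just inside the level threshold with a mean of 1.08 CPM and USP50 just outside it with 0.338 CPM. USP18, which removes ISG15 rather than ubiquitin, stood at 173 and 159.6 CPM in 4-cell controls and 12.9 and 24.5 CPM in 4-cell edited libraries, and at 50.8 and 69.5 CPM in controls against 2.27 and 4.82 CPM in edited libraries at the 8-cell stage.

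The first comparison asked how these transcripts differ between edited and control embryos at the 4-cell stage. Most USP transcripts that differed were higher in edited embryos, whereas E2 transcripts differed in both directions, as all genes tested did. Of the 78 members, 37 differed at an adjusted p under 0.05 (27 higher, 10 lower), where limma was fitted on log2(CPM + 1) and p was adjusted over all 12129 genes tested by the Benjamini-Hochberg method. Among all genes tested 44.7% were called, 18.9% as higher and 25.8% as lower. Of the 46 USP-symbol genes 20 rose and 1, USP21, fell. Without USP21 the count was 20 higher and 0 lower of 45, with 21 higher and 1 lower at an unadjusted p under 0.05, and edgeR and DESeq2 also gave 20 higher and 0 lower. Of the 32 UBE2 genes 7 rose and 9 fell, near the shares of all genes tested. The median log2 fold change was 0.55 over the USP-symbol genes, 0.12 over the UBE2 genes and -0.02 over all genes tested, and 34 of 46 and 19 of 32 had a positive value. Every called member had control and edited libraries that did not overlap. This adds no support beyond the calls, since the same values gave both, and uncalled members such as USP16 and USP28 did not overlap either.

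**Figure D1:**
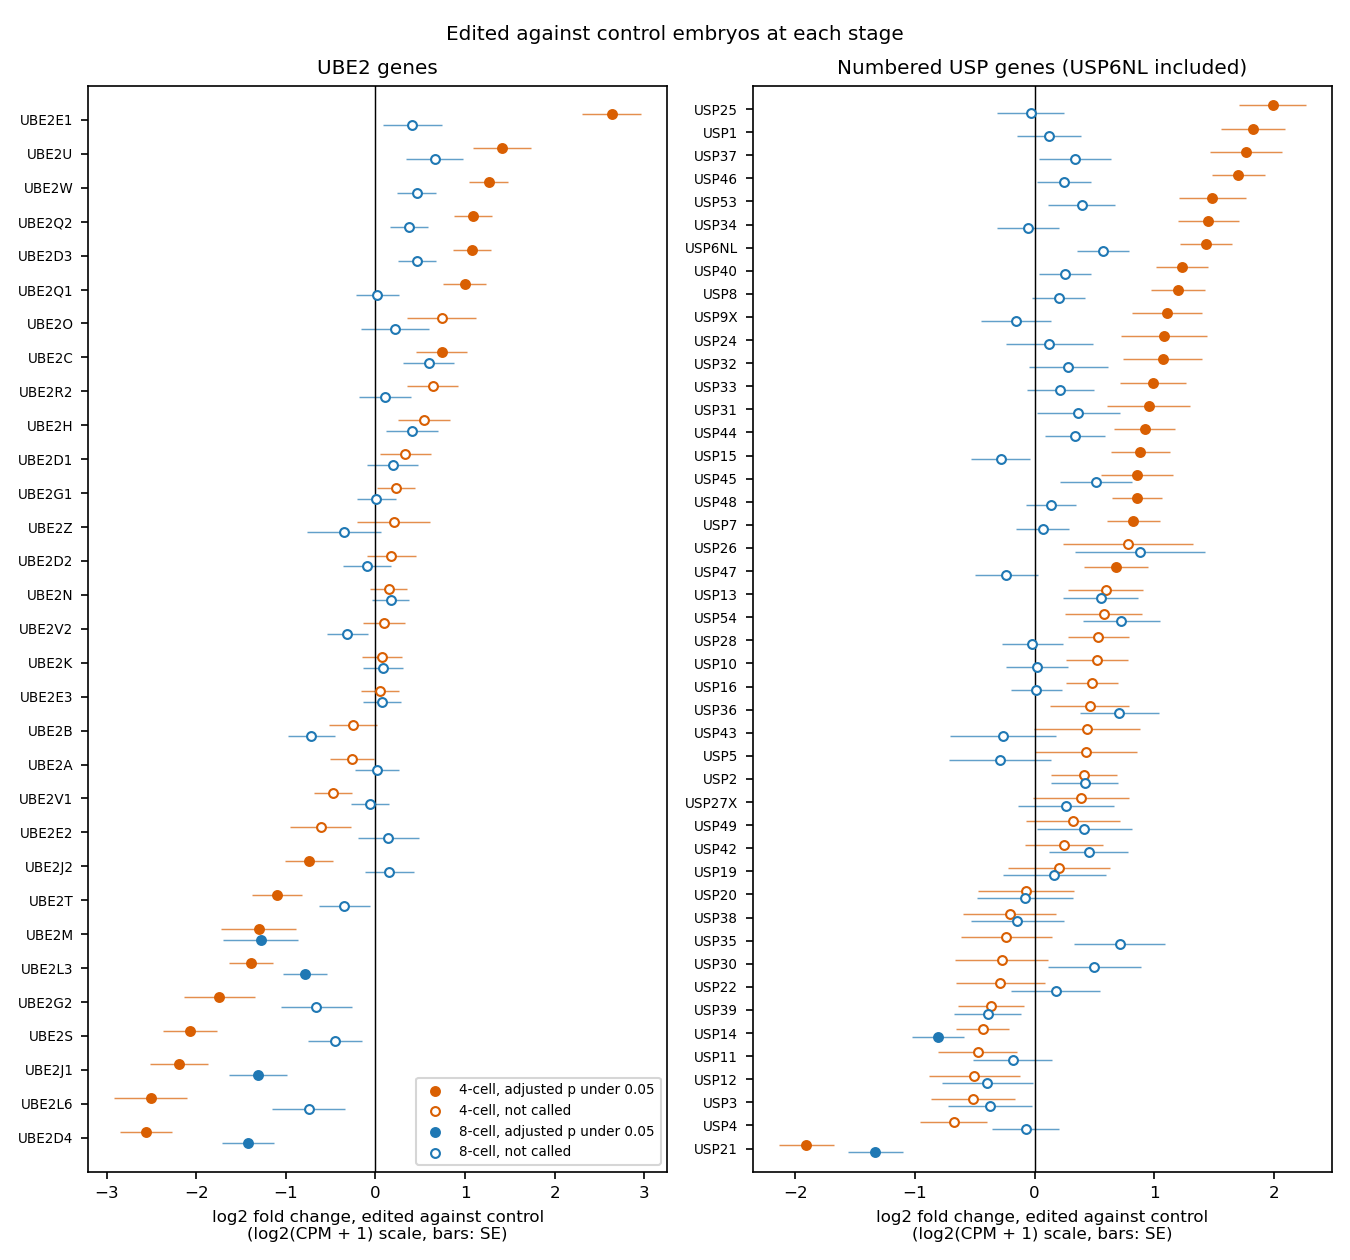
Log2 fold change of edited against control embryos on the log2(CPM + 1) scale for UBE2 genes (left) and the 46 USP-symbol genes (right), at the 4-cell stage (orange) and the 8-cell stage (blue). Bars are standard errors of the limma fit, and filled points passed an adjusted p of 0.05, as all 37 members called at the 4-cell stage do.

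**Figure D2:**
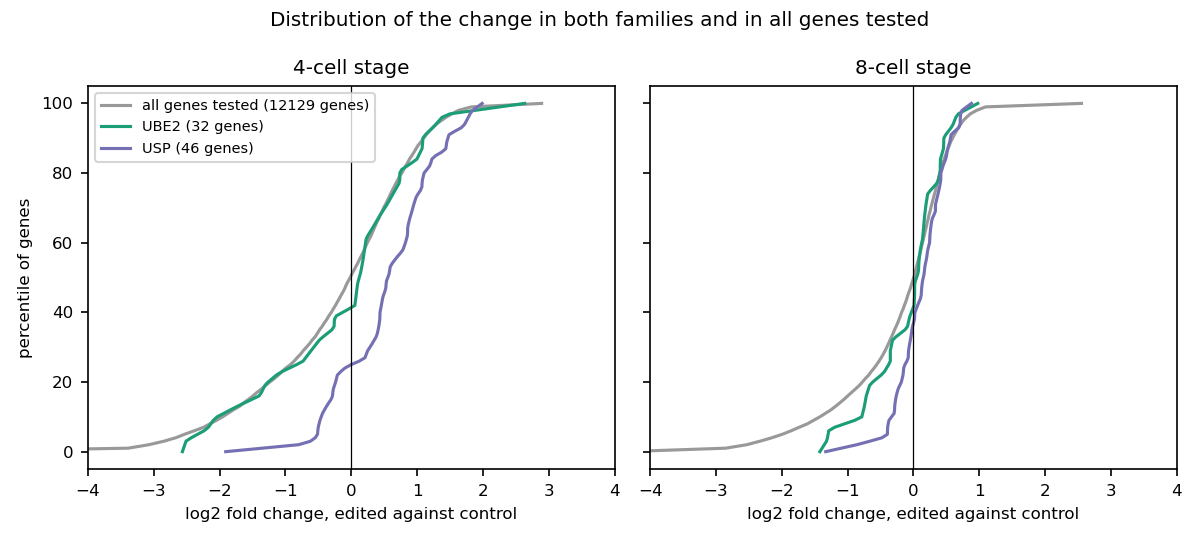
Percentile of genes (vertical axis) against the log2 fold change of edited against control embryos (horizontal axis) at each stage, for the UBE2 genes, the USP-symbol genes and all 12129 genes tested. At the 4-cell stage the USP curve crosses its median at 0.55 and the curve of all genes at -0.02, whereas at the 8-cell stage the medians are 0.15 and 0.00.

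Of the 10 E2s that work with many ligases and often place the first ubiquitin, 3 rose at the 4-cell stage, 2 fell and 5 were not called. UBE2E1, a member of the UBE2E family with an extended N terminus, stood at 9.01 and 15.7 CPM in the control libraries and at 101 and 62.6 CPM in the edited libraries (limma log2 fold change 2.64 with SE 0.328 and adjusted p = 1.42e-05). Both edited libraries were above both controls, and this was the highest log2 fold change among the members. UBE2D3, one of the UBE2D enzymes that serve a broad range of ligases, stood at 1794 and 1760.0 CPM in controls against 3397 and 4147 CPM in edited libraries (limma log2 fold change 1.08 with SE 0.211 and adjusted p = 0.000678). UBE2W, which can mark the N terminus of a protein, also rose, from 128 and 166 CPM to 331 and 373 CPM (limma log2 fold change 1.26 with SE 0.217 and adjusted p = 0.000239). In the opposite direction, UBE2D4 stood at 97.3 and 79.1 CPM in controls and 13.7 and 14.3 CPM in edited libraries (limma log2 fold change -2.57 with SE 0.29 and adjusted p = 6.02e-06), the lowest log2 fold change among the members. UBE2L3, which passes ubiquitin to ligases that form an intermediate with it, such as parkin, fell from 406 and 252 CPM to 121 and 123 CPM (limma log2 fold change -1.39 with SE 0.245 and adjusted p = 0.000303). The uncalled members of this role were UBE2D1, UBE2D2, UBE2E2, UBE2E3 and UBE2H, with log2 fold changes from -0.61 for UBE2E2 to 0.54 for UBE2H.

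The E2s of the anaphase-promoting complex, the ligase that triggers the exit from mitosis, differed in opposite directions. UBE2C, which starts the chains, stood at 115 and 186 CPM in 4-cell controls and 303 and 197 CPM in edited libraries (limma log2 fold change 0.74 with SE 0.284 and adjusted p = 0.0446). Its groups were close, since the second edited library was only just above the second control library. UBE2S, which lengthens these chains, stood at 210.4 and 157 CPM in controls and 54 and 33.5 CPM in edited libraries (limma log2 fold change -2.07 with SE 0.305 and adjusted p = 6.63e-05), with a wide gap between the groups.

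Of the 4 E2s that build chains for the proteasome only UBE2G2 was called. This enzyme of endoplasmic-reticulum-associated degradation fell from 78.7 and 48.1 CPM to 26.6 and 11.7 CPM (limma log2 fold change -1.74 with SE 0.394 and adjusted p = 0.00202). Its relative UBE2G1, which lengthens chains on substrates of cullin ligases, stood at 117 and 128 CPM in controls against 149.8 and 137 CPM in edited libraries (limma log2 fold change 0.23 with SE 0.214 and adjusted p = 0.411). The E2s anchored in the membrane of the endoplasmic reticulum were lower as well. UBE2J1 stood at 50.9 and 39.6 CPM in controls and 7.23 and 11.3 CPM in edited libraries (limma log2 fold change -2.19 with SE 0.327 and adjusted p = 7.34e-05), and UBE2J2 at 69 and 52.9 CPM in controls against 40.3 and 31.8 CPM in edited libraries (limma log2 fold change -0.74 with SE 0.27 and adjusted p = 0.0354). The call of UBE2J2 was lost with TMM scaling, which equalises libraries on their common genes, with edgeR, in a fit of only the libraries compared, and without the first 4-cell control or the second 4-cell edited library. The 3 subunits of the E2 for signalling chains were not called by limma, edgeR or DESeq2, and 1 had an unadjusted limma p under 0.05. UBE2N, its catalytic subunit, stood at 528 and 474 CPM in controls against 496 and 618 CPM in edited libraries, with overlapping groups (limma log2 fold change 0.15 with SE 0.207 and adjusted p = 0.602). UBE2V1, an inactive partner that orients the acceptor ubiquitin, stood at 192 and 175 CPM in controls against 143 and 121 CPM in edited libraries (limma log2 fold change -0.48 with SE 0.212 and adjusted p = 0.0795).

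Of the 3 E2s of chromatin and DNA repair only UBE2T was called. UBE2T, which serves the Fanconi anaemia ligase, stood at 72.3 and 57 CPM in controls and 28.6 and 30.4 CPM in edited libraries (limma log2 fold change -1.10 with SE 0.284 and adjusted p = 0.00511). UBE2A, a homologue of yeast Rad6 that marks histone H2B and the replication clamp, overlapped between groups at 87.1 and 64.2 CPM in controls against 58.7 and 65.8 CPM in edited libraries (limma log2 fold change -0.26 with SE 0.248 and adjusted p = 0.416). Among the 4 E2s listed for ubiquitin-like proteins or alternative activation, 2 fell and the other two were not called. UBE2L6, the E2 of the interferon-induced modifier ISG15, stood at 76.7 and 54 CPM in controls and 11.5 and 9.62 CPM in edited libraries (limma log2 fold change -2.51 with SE 0.407 and adjusted p = 0.000149). The summed level of 19 interferon-stimulated genes was 11151 to 17928 CPM in the same controls and 1120 to 1503 CPM in the edited libraries, and its part in the value of UBE2L6 was not tested. UBE2M, an E2 of NEDD8, stood at 12.7 and 6.68 CPM in controls against 3.24 and 3.07 CPM in edited libraries (limma log2 fold change -1.30 with SE 0.42 and adjusted p = 0.019). Of the 4 remaining E2s UBE2Q1, UBE2Q2 and UBE2U rose, with log2 fold changes of 0.99, 1.09 and 1.41, and UBE2O was not called (0.74).

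**Figure D3:**
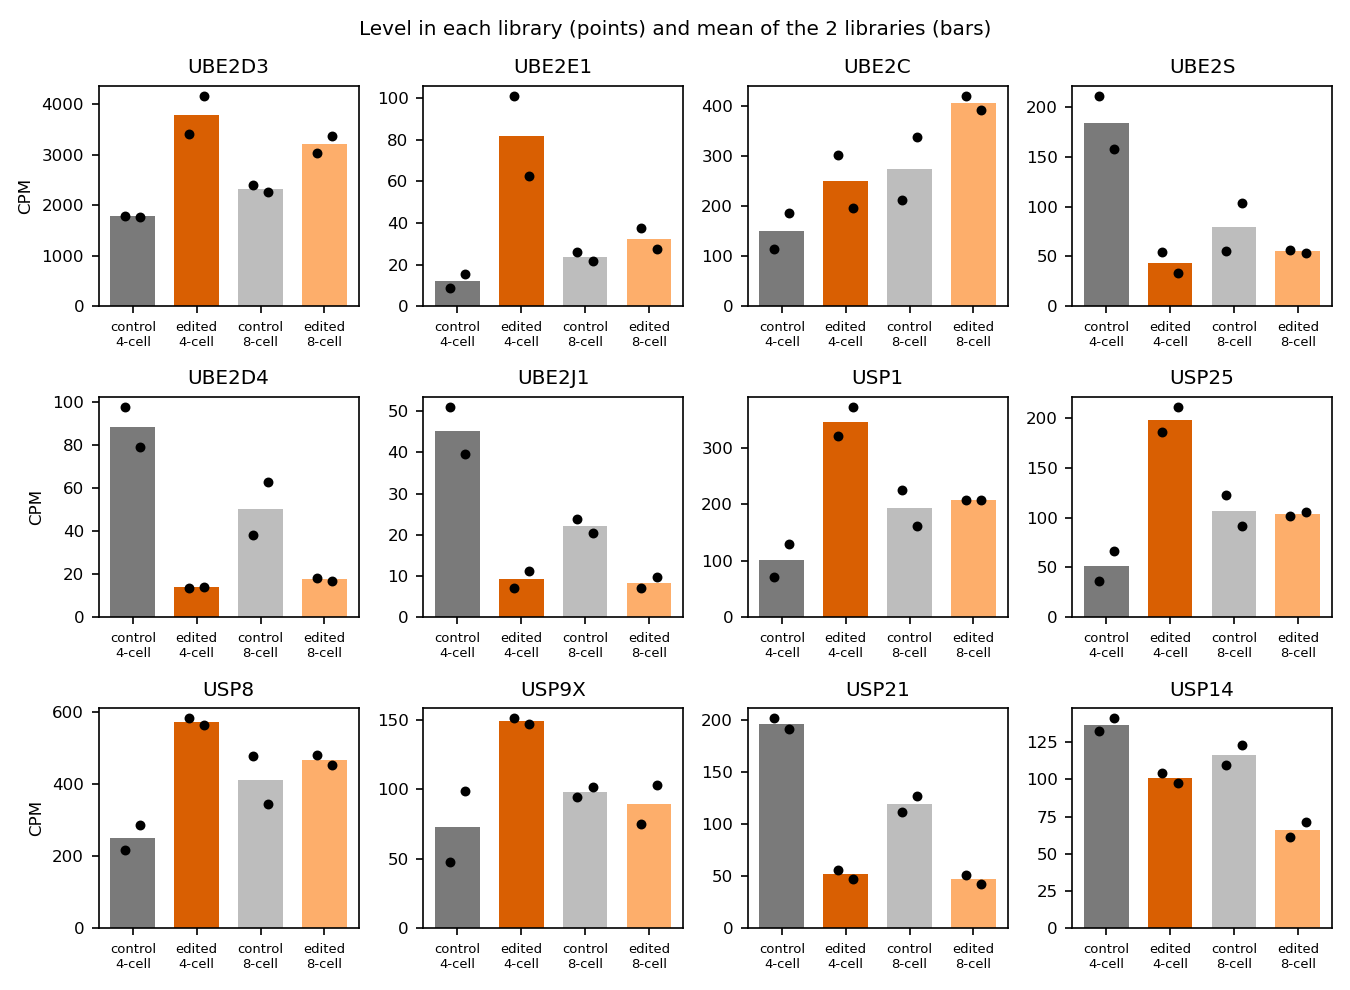
CPM in each library (points) and the mean of the 2 libraries of a group (bars) for 6 UBE2 and 6 USP genes, with 1 panel and 1 vertical scale per gene, starting at 0. UBE2E1, USP1 and USP25 are highest in the 4-cell edited libraries, whereas UBE2S, UBE2D4 and UBE2J1 are highest in the 4-cell controls, as are the reads listed for USP21.

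Among the USPs, those of endosomes, receptors and trafficking held 5 called genes of 7, all higher in 4-cell edited embryos. USP8, which spares receptors from lysosomal breakdown, stood at 217 and 286 CPM in controls and 582 and 563 CPM in edited libraries (limma log2 fold change 1.20 with SE 0.224 and adjusted p = 0.000478). USP9X, a large X-linked protease with many substrates, stood at 47.4 and 98.8 CPM in controls against 151 and 146 CPM in edited libraries (limma log2 fold change 1.11 with SE 0.296 and adjusted p = 0.00642). The control libraries of USP9X lay far apart, and both were below both edited libraries. USP46, which needs the partner WDR48 for full activity, rose from 75.8 and 103 CPM to 286 and 294 CPM (limma log2 fold change 1.70 with SE 0.224 and adjusted p = 2.37e-05). USP32 and USP33 rose by 1.07 and 0.99 on the log2 scale, and USP12 and USP20 were not called (-0.51 and -0.07).

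Of the 10 USPs listed for DNA repair and the p53 pathway, 5 rose and 5 were not called. USP1, which with WDR48 removes ubiquitin from the Fanconi anaemia protein FANCD2 and the replication clamp, stood at 71.8 and 129.8 CPM in controls and 321 and 372 CPM in edited libraries (limma log2 fold change 1.83 with SE 0.267 and adjusted p = 6.25e-05). USP7, which acts on p53 and on its ligase MDM2, stood at 149.6 and 187 CPM in controls against 341 and 258 CPM in edited libraries (limma log2 fold change 0.82 with SE 0.222 and adjusted p = 0.00671). The other called genes of this list were USP45, USP47 and USP48, with log2 fold changes of 0.86, 0.68 and 0.86. USP28, a nuclear protease that stabilises MYC, was not called at 121 and 186 CPM in controls against 214 and 221 CPM in edited libraries (limma log2 fold change 0.53 with SE 0.253 and adjusted p = 0.0987), although its groups did not overlap. The uncalled USP2, USP10, USP11 and USP42 lay between -0.48 for USP11 and 0.52 for USP10.

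The list of less studied or mixed USPs held 7 called genes of 11, all higher. USP25, a relative of USP28, stood at 35.9 and 67 CPM in controls and 186 and 210.5 CPM in edited libraries (limma log2 fold change 1.99 with SE 0.277 and adjusted p = 3.95e-05). USP37, which opposes the anaphase-promoting complex on cyclin A, stood at 21.2 and 41.2 CPM in controls against 96.8 and 110.0 CPM in edited libraries (limma log2 fold change 1.77 with SE 0.3 and adjusted p = 0.000222). In both genes the edited libraries were close to each other and far above both controls. USP34, a protease of the Wnt pathway component axin, stood at 69.5 and 125 CPM in controls against 262 and 252 CPM in edited libraries (limma log2 fold change 1.45 with SE 0.256 and adjusted p = 0.000304). USP24, USP31, USP40 and USP53 rose with log2 fold changes from 0.95 for USP31 to 1.49 for USP53. USP6NL, the Rab regulator, stood at 82.9 and 79.8 CPM in controls against 249 and 197 CPM in edited libraries (limma log2 fold change 1.43 with SE 0.216 and adjusted p = 7.75e-05), and without it the members counted 26 higher and 10 lower of 77.

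Few USPs of the proteasome, of organelle membranes, of splicing and of chromatin were called at the 4-cell stage. USP5, USP13 and USP14, which recycle ubiquitin from free chains or at the proteasome, were not called by limma, edgeR or DESeq2, and 0 of the 3 had an unadjusted p under 0.05. USP14, which is bound to the proteasome, stood at 133 and 141 CPM in controls and 104 and 97.4 CPM in edited libraries (limma log2 fold change -0.43 with SE 0.22 and adjusted p = 0.122). USP5, which takes apart free chains, stood at 4.29 and 3.23 CPM in controls against 8.59 and 3.25 CPM in edited libraries with overlapping groups (limma log2 fold change 0.43 with SE 0.426 and adjusted p = 0.435). Neither USP30 on the mitochondrial outer membrane, at 6.11 and 5.42 CPM in controls against 6.71 and 3.04 CPM in edited libraries, nor USP19 and USP35 were called by any of these tests, and the unadjusted count was 0 of 3 here too. Of the 3 USPs tied to splicing USP15 rose (limma log2 fold change 0.88 with SE 0.245 and adjusted p = 0.00796). USP39, a spliceosome protein without protease activity, stood at 30.3 and 31.9 CPM in controls against 21.3 and 26.7 CPM in edited libraries (limma log2 fold change -0.37 with SE 0.278 and adjusted p = 0.303).

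Of the 8 USPs that act on histones 1 rose and 1 fell. USP44, which also acts in the spindle checkpoint, rose (limma log2 fold change 0.92 with SE 0.254 and adjusted p = 0.0078). The reads listed for USP21 fell, from 201 and 191 CPM to 56 and 47.3 CPM (limma log2 fold change -1.91 with SE 0.229 and adjusted p = 1.01e-05), with the limit on their origin given above. USP16, which removes ubiquitin from histone H2A, stood at 165 and 182 CPM in controls against 213 and 276 CPM in edited libraries, and its groups did not overlap (limma log2 fold change 0.48 with SE 0.214 and adjusted p = 0.0807). USP22, the protease of the SAGA coactivator, had edited libraries on both sides of the controls, at 46.8 and 31.1 CPM in controls against 50 and 19.2 CPM in edited libraries (limma log2 fold change -0.29 with SE 0.372 and adjusted p = 0.561). The other histone proteases USP3, USP27X, USP36 and USP49 lay between -0.51 for USP3 and 0.46 for USP36 and were not called.

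Close relatives within the families were set side by side at the 4-cell stage, in sets taken from textbook families after the values had been seen and with no test between them. In the UBE2D set, UBE2D3 had a log2 fold change of 1.08 and UBE2D4 of -2.57, whereas UBE2D1, at 37 and 24.5 CPM in controls and 35.7 and 40.9 CPM in edited libraries, and UBE2D2, at 55.8 and 39.3 CPM in controls against 46.6 and 60.4 CPM in edited libraries, were not called. In the UBE2E set UBE2E1 was called with 2.64, and UBE2E2 (-0.61, SE 0.34) and UBE2E3 (0.05, SE 0.212) were not. UBE2L3 and UBE2L6 both fell, as did UBE2J1 and, with the limit given above, UBE2J2. USP46 had 1.70, while its relative USP12 stood at 12.9 and 17.6 CPM in controls against 10.3 and 10.4 CPM in edited libraries with -0.51 (SE 0.38, not called). USP25 had 1.99 and USP28 0.53. In the set of USP4, USP11 and USP15, USP15 was called with 0.88, and USP4 with -0.68 (SE 0.281) and USP11 with -0.48 (SE 0.331) were not.

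**Figure D4:**
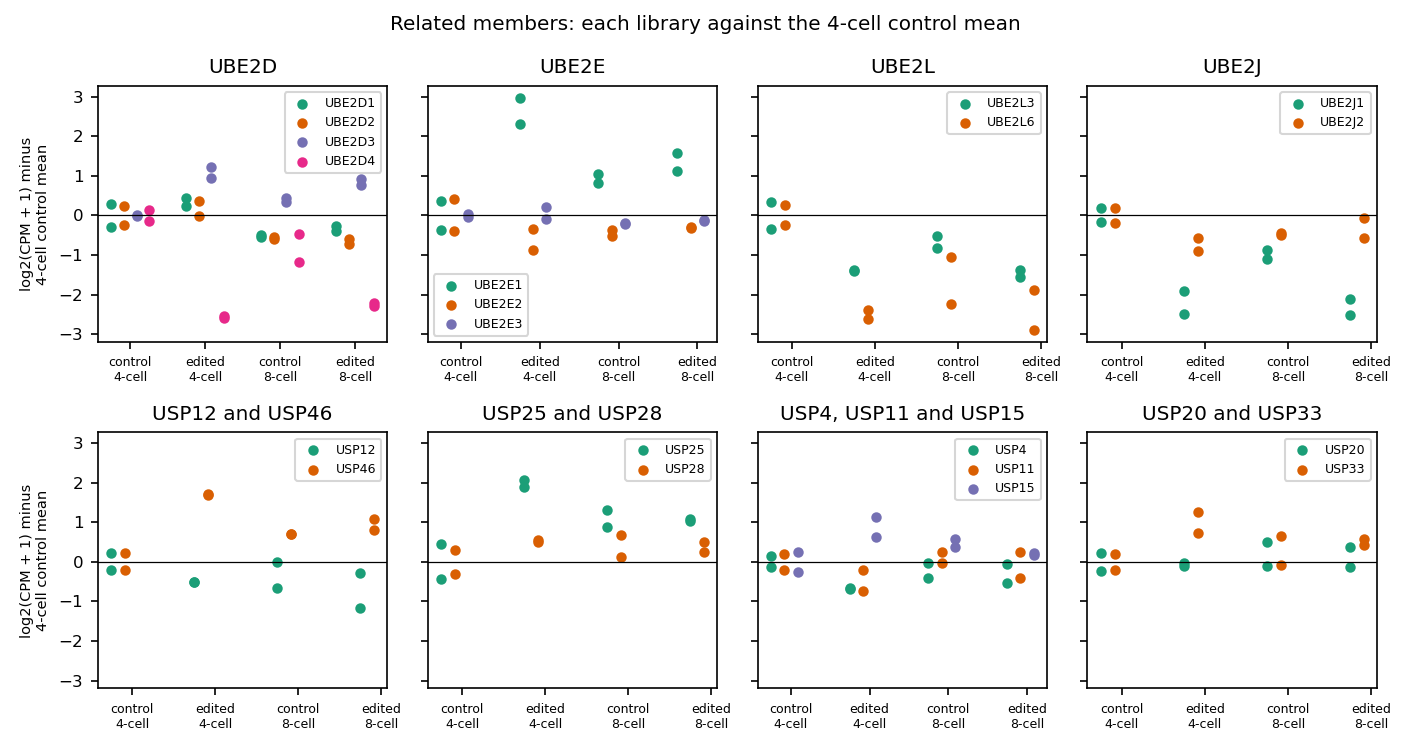
Log2(CPM + 1) of each library minus the mean of the 4-cell control libraries of the same gene, for 8 sets of related members (2 points per gene and group). In the UBE2D panel UBE2D4 lies below and UBE2D3 above the control level in the 4-cell edited libraries, and in the panel of USP12 and USP46 the gene above it is USP46.

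Summed over the family, the USP-symbol genes took 2311 and 3056 CPM in the 4-cell controls and 4841 and 4838 CPM in the 4-cell edited libraries. At the 8-cell stage the sums were 3842 and 3414 CPM in controls and 3971 and 3838 CPM in edited libraries. The UBE2 genes summed to 5287 and 4786 CPM in 4-cell controls and to 6778 and 7542 CPM in 4-cell edited libraries. Without UBE2D3 the sums overlapped, at 3492 and 3026 CPM in controls and 3381 and 3395 CPM in edited libraries. At the 8-cell stage the UBE2 sums were 5223 and 5249 CPM in controls and 6103 and 6333 CPM in edited libraries, and 2831 and 2998 against 3068 and 2961 CPM without UBE2D3.

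**Figure D5:**
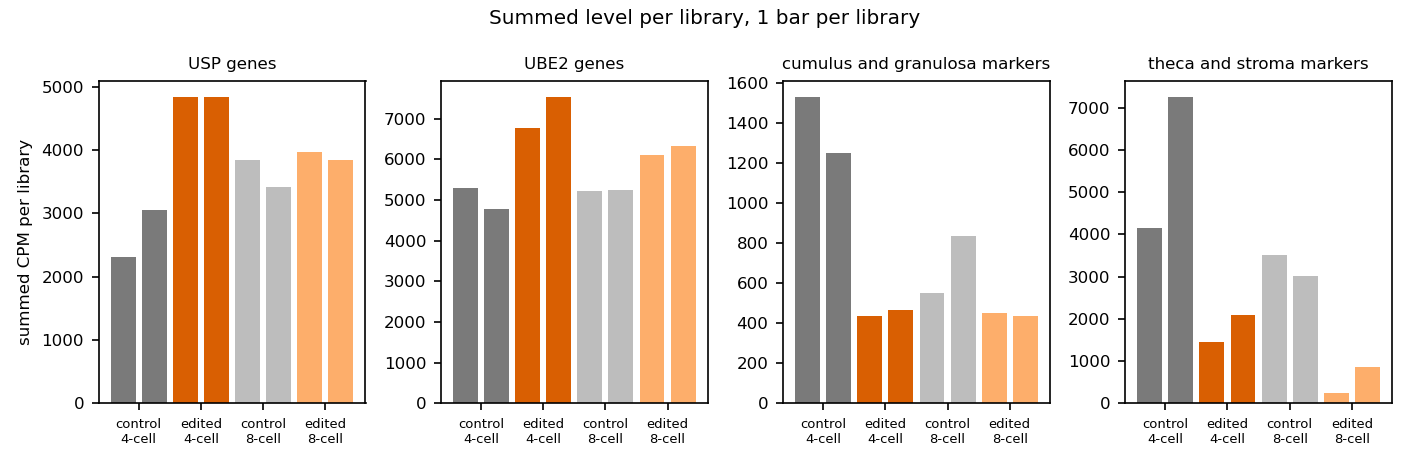
Summed CPM in each of the 8 libraries (1 bar per library, axes from 0) for the 46 USP-symbol genes, the 32 UBE2 genes, 18 cumulus and granulosa markers and 10 theca and stroma markers. The USP sum is lowest and both marker sums are highest in the 4-cell controls, where the markers sum to 1253 to 1532 CPM and 4149 to 7258 CPM.

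With the mean log2 level of the cumulus and granulosa markers as a covariate, none of the 37 members called at the 4-cell stage passed the threshold with limma, and 17 of the 78 members had an unadjusted p under 0.05. Under that fit 0.0907% of all genes tested were called as higher and 0.338% as lower, and the medians were 0.71 for the USP-symbol genes and 0.05 for the UBE2 genes. The covariate was 3.80 and 3.90 in 4-cell controls and 2.43 and 2.76 in 4-cell edited libraries. The edit and the marker level therefore cannot be told apart in these libraries. In the fits without a single library given next, the share of all genes tested called in the same direction fell too. Without the first 4-cell control library 11 USP-symbol genes rose, without the first 4-cell edited library 15, and without the second 4-cell edited library 6 UBE2 genes fell. Of the 37 calls 22 held with each library left out in turn. The calls lost without at least 1 library were those of UBE2C, UBE2G2, UBE2J2, UBE2M, UBE2Q1, USP7, USP9X, USP15, USP24, USP31, USP32, USP33, USP44, USP45 and USP47.

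At the 8-cell stage far fewer members differed between edited and control embryos, and nearly all of those were lower, as among all genes tested. Of the 78 members 7 were called (1 higher, 6 lower), where 15.6% of all genes tested were called, 1.08% as higher and 14.5% as lower. Those that fell were UBE2D4, UBE2J1, UBE2L3, UBE2M, USP14 and USP21. Without USP21 the count was 1 higher and 5 lower of 77. No USP-symbol gene was called as higher by limma or by edgeR, 3 had an unadjusted p under 0.05 in that direction with limma, and DESeq2 called 1. The medians were 0.15 for the USP-symbol genes, 0.05 for the UBE2 genes and 0.00 for all genes tested.

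USP14 stood at 109.9 and 123 CPM in controls against 61.2 and 71.2 CPM in edited libraries (limma log2 fold change -0.81 with SE 0.22 and adjusted p = 0.018). Its groups were clearly apart at this stage, and the call was lost when any single 8-cell library was left out. UBE2D4 stood at 38.1 and 62.6 CPM in controls and 18.3 and 17 CPM in edited libraries (limma log2 fold change -1.42 with SE 0.29 and adjusted p = 0.00241), and UBE2J1 at 23.9 and 20.4 CPM in controls against 7.08 and 9.67 CPM in edited libraries (limma log2 fold change -1.31 with SE 0.327 and adjusted p = 0.0102). The edited values of UBE2D4 and UBE2J1 were close to those of the 4-cell edited libraries, at 13.7 and 14.3 CPM and 7.23 and 11.3 CPM. UBE2L3 stood at 179.7 and 223 CPM in controls against 123 and 109 CPM in edited libraries (limma log2 fold change -0.79 with SE 0.245 and adjusted p = 0.0375). UBE2M stood at 4.81 and 7.69 CPM in controls against 2.78 and 1.26 CPM in edited libraries (limma log2 fold change -1.28 with SE 0.42 and adjusted p = 0.0494). The call of UBE2L3 was lost in 11 of its 19 alternatives, among them TMM and median-of-ratios scaling, edgeR and DESeq2, and that of UBE2M in 12 of 19, with median-of-ratios scaling, a pseudocount of 5 CPM and edgeR among them. The reads listed for USP21 stood at 112 and 127 CPM in controls against 50.9 and 42.8 CPM in edited libraries (limma log2 fold change -1.33 with SE 0.229 and adjusted p = 0.000559), the only one of these calls that held with each library left out in turn. Without the second 8-cell control library 2 members were called, and without either 8-cell edited library 3. In each of these fits the share of all genes tested that was called fell as well. The mean log2 level of the cumulus and granulosa markers was 3.73 in the second 8-cell control library and 2.95 in the first. Single genes differed: the steroidogenic granulosa gene CYP11A1 stood at 133 against 29.1 CPM, STAR at 143 against 154 CPM and SERPINE2 at 176 against 171 CPM. The stroma marker LUM stood at 2449 against 3052 CPM. The part of such transcripts in these values was not tested. With the marker covariate none of the 7 was called, and 4 of the 78 members had an unadjusted p under 0.05. Of all genes tested 0.899% were called in that fit.

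The 27 members that rose at the 4-cell stage were all uncalled at the 8-cell stage, where their log2 fold changes ran from -0.28 for USP15 to 0.66 for UBE2U. Over all genes tested the share called as higher was 18.9% at the 4-cell stage and 1.08% at the 8-cell stage. The share called as lower was 25.8% and 14.5%. UBE2D3 stood at 2392 and 2251 CPM in 8-cell controls and 3035 and 3372 CPM in edited libraries (log2 fold change 0.46), and UBE2C at 213 and 338 CPM in controls against 419.9 and 392 CPM in edited libraries (0.59). In both genes the groups still did not overlap. USP1 stood at 225 and 162 CPM in controls against 208 and 208 CPM in edited libraries (0.12), USP7 at 282 and 267 CPM in controls against 309.9 and 267 CPM in edited libraries (0.07), and USP8 at 478 and 345 CPM in controls against 480.4 and 453 CPM in edited libraries (0.20). Of the 10 that fell at the 4-cell stage, 5 were called as lower at the 8-cell stage too (UBE2D4, UBE2J1 and USP21, and with the losses given above UBE2L3 and UBE2M) and 5 were not (UBE2G2, UBE2J2, UBE2L6, UBE2S and UBE2T). UBE2L6 stood at 12.8 and 30.4 CPM in 8-cell controls and 16.7 and 7.76 CPM in edited libraries, with overlapping groups, and UBE2T likewise overlapped at 43.2 and 69 CPM in controls against 49.4 and 36.7 CPM in edited libraries. UBE2G2 was lower in both edited libraries without passing the test, at 23.8 and 49.1 CPM in controls against 22.4 and 20.3 CPM in edited libraries (limma log2 fold change -0.66 with SE 0.394 and adjusted p = 0.309). Across these comparisons, which share no library, 61 of 78 members (78.2%) had the same sign at both stages, against 72.8% of all genes tested.

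Whether the edited against control effect differs between stages was tested directly as the 8-cell effect minus the 4-cell effect. Of the 78 members 6 passed (1 higher, 5 lower), where 3.96% of all genes tested passed, 1.95% as higher and 2% as lower. USP25, USP46, USP1, USP34 and UBE2E1 had an effect that was lower at the 8-cell stage, and UBE2S had one that was higher. USP25 stood at 122 and 91.6 CPM in 8-cell controls and 101 and 106 CPM in 8-cell edited libraries, which overlapped, against its wide gap at the 4-cell stage (difference -2.02, SE 0.391, limma adjusted p = 0.0213). UBE2E1 stood at 25.9 and 21.9 CPM in controls against 37.3 and 27.3 CPM in edited libraries at the 8-cell stage (difference -2.23, SE 0.463, limma adjusted p = 0.0257). For USP46 the 8-cell values were 146 and 144 CPM in controls against 189 and 156 CPM in edited libraries (difference -1.46, limma adjusted p = 0.0298). USP34 went from a called increase to 172 and 157 CPM in controls against 149 and 168 CPM in edited libraries with overlapping groups (difference -1.51, limma adjusted p = 0.0365), and USP1 had a difference of -1.71 (limma adjusted p = 0.031). UBE2S stood at 55.7 and 103 CPM in 8-cell controls and 56.4 and 53.9 CPM in edited libraries, so that groups apart at the 4-cell stage overlapped here (difference 1.62, limma adjusted p = 0.0474). With TMM scaling the split was 0 higher and 5 lower, since UBE2S was no longer called. Of all genes tested 1.34% were then called as higher and 1.67% as lower. With edgeR 0 members passed (22 at an unadjusted p under 0.05), and with the marker covariate 2 did, USP25 and UBE2E1. Of all genes tested 0.123% passed with edgeR and 0.866% with the marker covariate. In the fits without a single library given next, the calls over all genes tested moved in the same direction as the member count. The count was 17 without the second 4-cell control library, 1 without the first, and 0 without either 4-cell edited library, the first 8-cell control library or either 8-cell edited library.

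In control embryos the 8-cell stage was compared with the 4-cell stage. Of the 78 members 6 differed (4 higher, 2 lower), where 9.02% of all genes tested did, 2.75% as higher and 6.27% as lower. USP25 rose from 35.9 and 67 CPM to 122 and 91.6 CPM (limma log2 fold change 1.09 with SE 0.277 and adjusted p = 0.029) and USP1 from 71.8 and 129.8 CPM to 225 and 162 CPM (limma log2 fold change 0.98 with SE 0.267 and adjusted p = 0.0356). USP40, a protease of little-known function, rose from 65.3 and 78.8 CPM to 121 and 134 CPM (limma log2 fold change 0.82 with SE 0.217 and adjusted p = 0.0333). UBE2Q1 rose from 122 and 153 CPM to 269 and 222 CPM (limma log2 fold change 0.83 with SE 0.239 and adjusted p = 0.0424). The groups were separate for each of these, although the first 4-cell control library was the lower of its pair for all 4. UBE2S fell from 210.4 and 157 CPM to 55.7 and 103 CPM (limma log2 fold change -1.25 with SE 0.305 and adjusted p = 0.0257) and UBE2L6 from 76.7 and 54 CPM to 12.8 and 30.4 CPM (limma log2 fold change -1.65 with SE 0.407 and adjusted p = 0.0266). With median-of-ratios scaling the split was 1 higher and 3 lower, where 1.56% of all genes tested were called as higher and 7.32% as lower. With edgeR 0 members were called (21 at an unadjusted p under 0.05), where 0.588% of all genes tested were. The cumulus and granulosa markers summed to 1253 to 1532 CPM in the 4-cell and to 552 to 837 CPM in the 8-cell controls, and 0 members were called with the marker covariate (10 at an unadjusted limma p under 0.05) or in a limma fit of only the libraries compared (20 at an unadjusted p under 0.05). The count was 0 without the first control library of either stage, 3 without either 4-cell edited library and 21 without the second 4-cell control library. In each of these fits without a single library, the calls over all genes tested moved in the same direction as the member count. The comparison of stages in controls shares its 4-cell controls with the 4-cell comparison of edited and control embryos. It also shares its 8-cell controls with the 8-cell one, so the values are given side by side only.

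In edited embryos 2 members differed between the stages (0 higher, 2 lower), where 5.18% of all genes tested did, 1.45% as higher and 3.73% as lower. UBE2E1 fell from 101 and 62.6 CPM to 37.3 and 27.3 CPM (limma log2 fold change -1.29 with SE 0.328 and adjusted p = 0.0353). UBE2B, a homologue of yeast Rad6 like UBE2A, fell from 99.8 and 139.8 CPM to 65.8 and 49.6 CPM (limma log2 fold change -1.04 with SE 0.266 and adjusted p = 0.036), and in neither gene did the stages overlap. UBE2B stood at 175 and 114 CPM in 4-cell controls and 93 and 95.8 CPM in 8-cell controls. No USP-symbol gene was called by limma, with 1 higher and 9 lower at an unadjusted p under 0.05. For those genes edgeR called 0 and DESeq2 called 0 higher and 2 lower. Both calls were lost when any single edited library was left out and with edgeR, which called 0 of the 78 members (14 at an unadjusted p under 0.05), and the count was 7 or 8 without a 4-cell control library. With the marker covariate limma called 0 members (16 at an unadjusted p under 0.05), and a fit of only the libraries compared called 12. These fits called 2.5% and 9.47% of all genes tested. Without a 4-cell control library the calls over all genes tested rose as well. The groups of this comparison are the edited ones of the comparisons with controls.

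The other genes of the pathway were read from lists that take no member, beside 18.9% of all genes tested called as higher and 25.8% as lower at the 4-cell stage, and 1.08% and 14.5% at the 8-cell stage. Of 9 E1 enzymes tested 1 rose and 2 fell at the 4-cell stage, and 1 fell at the 8-cell stage. UBA7, the E1 of ISG15, stood at 21.3 and 13.9 CPM in 4-cell controls and 1.62 and 1.26 CPM in edited libraries, and at 4.46 and 22.1 CPM in controls against 0.926 and 1.74 CPM in edited libraries at the 8-cell stage, where the controls lay far apart. Of 12 genes of ubiquitin and ubiquitin-like proteins 2 rose and 8 fell at the 4-cell stage, and 2 fell at the 8-cell stage. ISG15 stood at 1565 and 843 CPM in controls against 82.3 and 92.2 CPM in edited libraries at the 4-cell stage (limma log2 fold change -3.71 with SE 0.315 and adjusted p = 9.77e-07). SUMO2 was among the genes of this list that rose (limma log2 fold change 1.20 with SE 0.229 and adjusted p = 0.000578). The 8 E2-fold genes without a UBE2 symbol gave 3 lower at the earlier stage and 4 lower at the later one, UFC1 among them. The reads of UFC1 are the same as those listed for USP21, so they are counted in both places.

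Of 36 deubiquitinases outside the USP family, 6 rose (16.7%) and 12 fell (33.3%) at the 4-cell stage, and 7 fell (19.4%) at the 8-cell stage. UCHL1, a hydrolase that is abundant in oocytes and neurons, stood at 3573 and 2129 CPM in 4-cell controls and 333 and 399 CPM in edited libraries (limma log2 fold change -2.92 with SE 0.266 and adjusted p = 1.2e-06). OTUB1, which also inhibits UBE2N, stood at 674 and 433 CPM in controls against 78 and 67.9 CPM in edited libraries (limma log2 fold change -2.87 with SE 0.247 and adjusted p = 1.01e-06). OTUD4 rose from 21.4 and 37.9 CPM to 101 and 96.5 CPM (limma log2 fold change 1.75 with SE 0.28 and adjusted p = 0.000127). Of 17 genes of the anaphase-promoting complex and its regulators, 5 rose and 3 fell at the 4-cell stage. FBXO5, an inhibitor of the complex, stood at 174 and 201 CPM in controls against 524 and 516 CPM in edited libraries (limma log2 fold change 1.47 with SE 0.218 and adjusted p = 6.91e-05), and the subunit ANAPC5 at 40.9 and 46.4 CPM in controls against 15.6 and 10.3 CPM in edited libraries (limma log2 fold change -1.70 with SE 0.308 and adjusted p = 0.000376). Of 21 cullins and core partners 5 rose and 5 fell (23.8% each), near the shares of all genes tested. Elongin C, ELOC, rose (1.21) and its partner elongin B, ELOB, fell (-2.68). Of 9 partners of single USPs 3 rose, among them ENY2 of the module that holds USP22 (limma log2 fold change 1.35 with SE 0.203 and adjusted p = 7.49e-05) and the p53 regulator MDM4 (limma log2 fold change 1.20 with SE 0.249 and adjusted p = 0.00108).

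Of the 78 members, 38 were called in none of the 5 comparisons. They include 14 UBE2 genes, among them UBE2N, UBE2V1, UBE2V2, UBE2A, UBE2K and UBE2G1, and 24 USP-symbol genes, among them USP5, USP16, USP22, USP28, USP30 and USP39. UBE2N, UBE2G1 and UBE2E3 varied little: UBE2N lay between 387 and 618 CPM over the 8 libraries, UBE2G1 between 117 and 149.8 CPM and UBE2E3 between 135 and 182 CPM. A p above the threshold does not show that these levels were equal. Several of the uncalled genes had low levels, such as USP26, which lay between 0.116 and 4.09 CPM, and USP20, between 1.58 and 3.28 CPM. On the log2(CPM + 1) scale a change in such genes is understated.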

How the data were processed

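RNA was sequenced from 8 libraries, each from a pool of 5 bovine embryos, with full-length cDNA made by a SMART-Seq kit and tagmented with a Nextera XT kit per the labels' protocols. The submitters' processing notes name Trim Galore 0.6.7, HISAT2 2.2.1 and featureCounts 2.0.1. The genome build, the annotation, the strand setting and any filter are not given in the sources used here. The deposited table holds CPM of the authors for 16606 gene symbols in 12 columns, of which 4 match no sample and were not used. Columns sum to between 992528 and 1007024. Each library has a step of which 100% of its values above 0 are multiples, to within 0.05 reads, and whole reads were recovered from it.

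The main test was limma 3.58.1 run in R 4.3.3 on log2(CPM + 1), using its trended prior, 1 mean per group over all 8 libraries and no covariate. It covered 12129 genes whose average reached 1 CPM, with Benjamini-Hochberg adjustment over all of them and a threshold of 0.05. This filter equals the level in the membership rule, so all 78 members were tested. Fold changes on this scale understate changes of low genes. edgeR 4.0.16 and DESeq2 1.42.0 on the recovered reads were alternatives, as were other pseudocounts (0.5 and 5), filters (none and 5 CPM) and scalings, a marker covariate and leaving out each library. Leaving a member out because it shares all reads with another gene was chosen after seeing the data. Fits were also run on simulated data in which few genes changed, and only in the 4-cell edited group. Such a simulation does not cover data in which 44.7% of genes are called, as at the 4-cell stage here. Values of 1 member and of some listed genes are not reported here, although the counts include them.

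Members and lists were chosen with earlier results of these data known. Per-library values are given for up to 6 called members per comparison and direction with the smallest p, and for 1 or more fixed members per role. Non-members are named for up to 2 called genes per list and direction. Pairs of relatives by protein identity were planned, but protein sequences were not used here, and related genes were taken from textbook families instead. Libraries of a group correlated at 0.971 to 0.978 on the log2 scale and differed beyond sampling noise (chi-square per degree of freedom 46.1 to 143.8). The labels describe them as separate pools, and p-values measure only the spread between these samples. Reads from amplified cDNA are not independent molecules.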

Additional observations from a re-analysis of the deposited data

Results flagged for a closer look

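For 6 members the edited against control effect passed a test of its difference between the stages. The test was limma on the 8-cell effect minus the 4-cell effect on the log2(CPM + 1) scale, adjusted over all genes tested. The differences were -2.02 for USP25, -2.23 for UBE2E1, -1.46 for USP46, -1.71 for USP1, -1.51 for USP34 and 1.62 for UBE2S. For USP1, USP25, USP34 and UBE2S the 8-cell control and edited libraries overlapped, and for UBE2E1 and USP46 the log2 fold change at the 8-cell stage was closer to 0 than at the 4-cell stage. Each of these calls was lost with edgeR and without either 4-cell edited library.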

How the results depend on the processing

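Over the 58 calls of a member in a comparison, 1096 alternative values were obtained, of which 855 kept the call, 241 lost it and 0 changed sign. The marker covariate gave 0 members at the 4-cell stage, 0 at the 8-cell stage, 0 for stage in controls, 0 for stage in edited embryos and 2 for the difference between stages (unadjusted p under 0.05: 17, 4, 10, 16 and 18 members). With no filter on low values the counts were 4 at the 8-cell stage and 0, 0 and 0 for stage in controls, stage in edited embryos and the difference (unadjusted 27, 15 and 22). With edgeR the same last 3 counts were 0, 0 and 0 (unadjusted 21, 14 and 22), and with DESeq2 stage gave 10 in controls and 5 in edited embryos. A pseudocount of 5 CPM gave 13 for stage in controls. Fitting only the libraries compared gave 0 for stage in controls (unadjusted 20) and 12 in edited embryos, and it cannot be given for the difference, which uses all 8 libraries. Over all genes tested the marker covariate called 0.429%, 0.899%, 0.165%, 2.5% and 0.866% in the same order. With no filter the shares were 9.2%, 0.00603%, 0.102% and 0%, and with edgeR 0.588%, 2.21% and 0.123%. For stage DESeq2 called 9.82% and 7.75%, and the pseudocount of 5 CPM called 13% in controls. The fit of only the libraries compared called 1.33% in controls and 9.47% in edited embryos. The causes were not tested. Leaving out each library in turn gave 25 to 41 members at the 4-cell stage, 2 to 8 at the 8-cell stage, 0 to 21 for stage in controls, 0 to 8 for stage in edited embryos and 0 to 17 for the difference, where the lone library of a group is assumed to vary like the other groups. The replicate numbers of the titles are not said to pair libraries, and same-numbered libraries deviated with correlations of 0.11, -0.09, -0.30 and 0.02 in the 4 comparisons of groups. A replicate block on these numbers gave 36, 6, 6, 2 and 5 members, where 43.1%, 15.2%, 8.12%, 4.57% and 3.18% of all genes tested were called. Between the fits without a single library the calls over all genes tested varied as well. TMM and median-of-ratios scaling shifted the median of all genes by less than 0.1 on the log2 scale. With 3 reads worth at most 0.0899 CPM, counting error weighs most on the members near 1 CPM.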
